A study of Mus musculus with 13 samples.

Results

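Lysyl hydroxylases and lysyl oxidases make the covalent cross-links that hold collagen fibrils together. Inside the cell the lysyl hydroxylases, encoded by Plod1, Plod2 and Plod3, add hydroxyl groups to lysines of new procollagen. Outside it the copper-dependent lysyl oxidases, encoded by Lox and Loxl1 to Loxl4, oxidise lysines and hydroxylysines of collagen and elastin, and the resulting aldehydes then condense into cross-links. In bone this chemistry sets the mechanical strength of the matrix, and hydroxylation of the telopeptides by the Plod2 product decides which kind of cross-link forms.

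The members are every probe that the platform annotation names as Plod1, Plod2, Plod3, Lox, Loxl1, Loxl2, Loxl3 or Loxl4. Each of the 8 genes had 1 probe, and all 8 passed the filter on dim probes, among 16593 named genes on the array and 10992 genes tested. The array measures mRNA, so enzyme activity and cross-links themselves were not analysed here.

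RNA came from tail vertebrae of mice aged 9 months on a C57BL/6x129Sv/B6 hybrid background, hybridised to 13 one-colour Illumina bead arrays. The groups were 2 lesions from Prkar1a+/- Prkaca+/- mice (double heterozygotes), 3 lesions from Prkar1a+/- mice, 4 samples of bone from Prkaca+/- mice and 4 samples of bone from WT mice. Prkar1a encodes a regulatory subunit of protein kinase A and Prkaca a catalytic subunit. Every sample with a Prkar1a+/- genotype was a lesion, so the genotype and the lesion cannot be told apart. The labels number the replicates without saying that each is a separate mouse, and the spread behind each p-value may therefore be technical.

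The arrays detected between 13555 and 14831 of 25697 probes, taking a detection p-value under 0.01 as detected. Prkar1a was lower in lesions by a log2 difference of -1.40 ± 0.10 (SE, limma adjusted p = 5.37e-07) and did not overlap with non-lesion bone. Prkaca was 9.44 ± 0.35 log2 units in double heterozygote lesions (SD, n = 2), 10.37 ± 0.54 in Prkar1a+/- lesions (n = 3), 10.58 ± 0.30 in Prkaca+/- bone (n = 4) and 11.44 ± 0.12 in WT bone (n = 4). Prkar1a+/- lesions, whose labels give no Prkaca allele, were thus at 10.02 to 10.99, against 11.33 to 11.62 in WT bone, a log2 difference of -1.08 ± 0.24 (SE, limma adjusted p = 0.00374). Whether the Prkar1a and Prkaca probes lie in the deleted part of each gene was not analysed here. All 8 measured osteoblast markers, among them Col1a1 and Col1a2, were higher in lesions at a limma adjusted p under 0.05. So were 26.2% of all tested genes. The mean level of these markers was 13.29 to 13.96 log2 units in the 5 lesions, against 9.91 to 11.15 in the 8 non-lesion samples. The skeletal muscle markers averaged 10.1 to 13.4 in lesions, against 13.5 to 13.9 in non-lesion bone, so muscle transcripts were present in every group. The highest muscle level among lesions was 13.44, in Prkar1a+/- lesion 1, and the lowest was 10.12, in Prkar1a+/- lesion 2.

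Promoter sequences of 3 members, Plod1, Plod3 and Loxl4, were matched by symbol in RefSeq, and are shown because only these members had an entry in the promoter reference used. The promoters of Plod2, Lox, Loxl1, Loxl2 and Loxl3 were not analysed here. Each is the 250 bases before the annotated start, 5′ to 3′ on the strand of the gene, in build GRCm38.p6. Plod1 lies on the minus strand at chr4:147936777-147937026, Plod3 on the plus strand at chr5:136986769-136987018 and Loxl4 on the minus strand at chr19:42612807-42613056. Capitals mark a CRE half-site or a hypoxia response core, motifs bound by the protein kinase A target CREB and by hypoxia-inducible factors.
Plod1: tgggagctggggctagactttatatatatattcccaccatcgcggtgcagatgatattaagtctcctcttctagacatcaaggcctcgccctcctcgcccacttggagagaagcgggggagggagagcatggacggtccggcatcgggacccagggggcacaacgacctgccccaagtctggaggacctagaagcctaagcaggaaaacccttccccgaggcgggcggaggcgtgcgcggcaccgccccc
Plod3: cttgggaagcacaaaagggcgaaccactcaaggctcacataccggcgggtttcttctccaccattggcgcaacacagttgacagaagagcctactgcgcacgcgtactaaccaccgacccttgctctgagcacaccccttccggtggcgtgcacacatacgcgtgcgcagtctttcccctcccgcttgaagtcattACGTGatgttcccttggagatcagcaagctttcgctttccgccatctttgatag
Loxl4: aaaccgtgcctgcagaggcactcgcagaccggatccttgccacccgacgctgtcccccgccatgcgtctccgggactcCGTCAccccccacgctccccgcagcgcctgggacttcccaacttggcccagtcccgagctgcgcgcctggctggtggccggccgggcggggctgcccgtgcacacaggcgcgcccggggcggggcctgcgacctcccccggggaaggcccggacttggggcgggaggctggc

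Motifs were searched on both strands. The full CRE is TGACGTCA, and its half-site, which lies within it, is TGACG. No full CRE was found in the 3 windows, and 1.55% of 32851 mouse promoters of the same length held one. The Loxl4 window held 1 half-site, written CGTCA on this strand, at position -172 counted from the start, and 17.8% of promoters held one.

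The hypoxia response core is ACGTG. The Plod3 window held 1, at position -54, and 16.6% of promoters held one.

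The SP1 GC box is GGGCGG. The Loxl4 window held 3 of them and the Plod1 window 2, the Plod3 window held none, and 32.7% of promoters held at least 1. Bases G and C made up 76% of the Loxl4 window, 61.6% of the Plod1 window and 55.6% of the Plod3 window.

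The TATA box letters are TATAAA. The Plod1 window held 1, written TTTATA on this strand, at position -232, and 12.4% of promoters held one.

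The main question is how the 5 lesions differed from the 8 samples of bone without lesion. Transcripts of 7 of the 8 enzymes were higher in lesions and none was lower, at a limma adjusted p under 0.05 over all tested probes. Of all 16226 tested probes, 25.1% were called higher in the same comparison and 51.2% in either direction. The median log2 difference of the 8 members was 1.04, against -0.01 over all tested genes, and 6 of the 8 did not overlap between lesions and non-lesion bone, against 14.1% of probes that were higher without overlap. Loxl4 is among the 7 and the 6, though it passed the filter on dim probes only through the lesions. The lesion difference is the mean of the 2 lesion groups minus the mean of the 2 non-lesion groups. In a bulk sample, fewer cells of a type and less RNA per cell cannot be told apart.

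**Figure D1:**
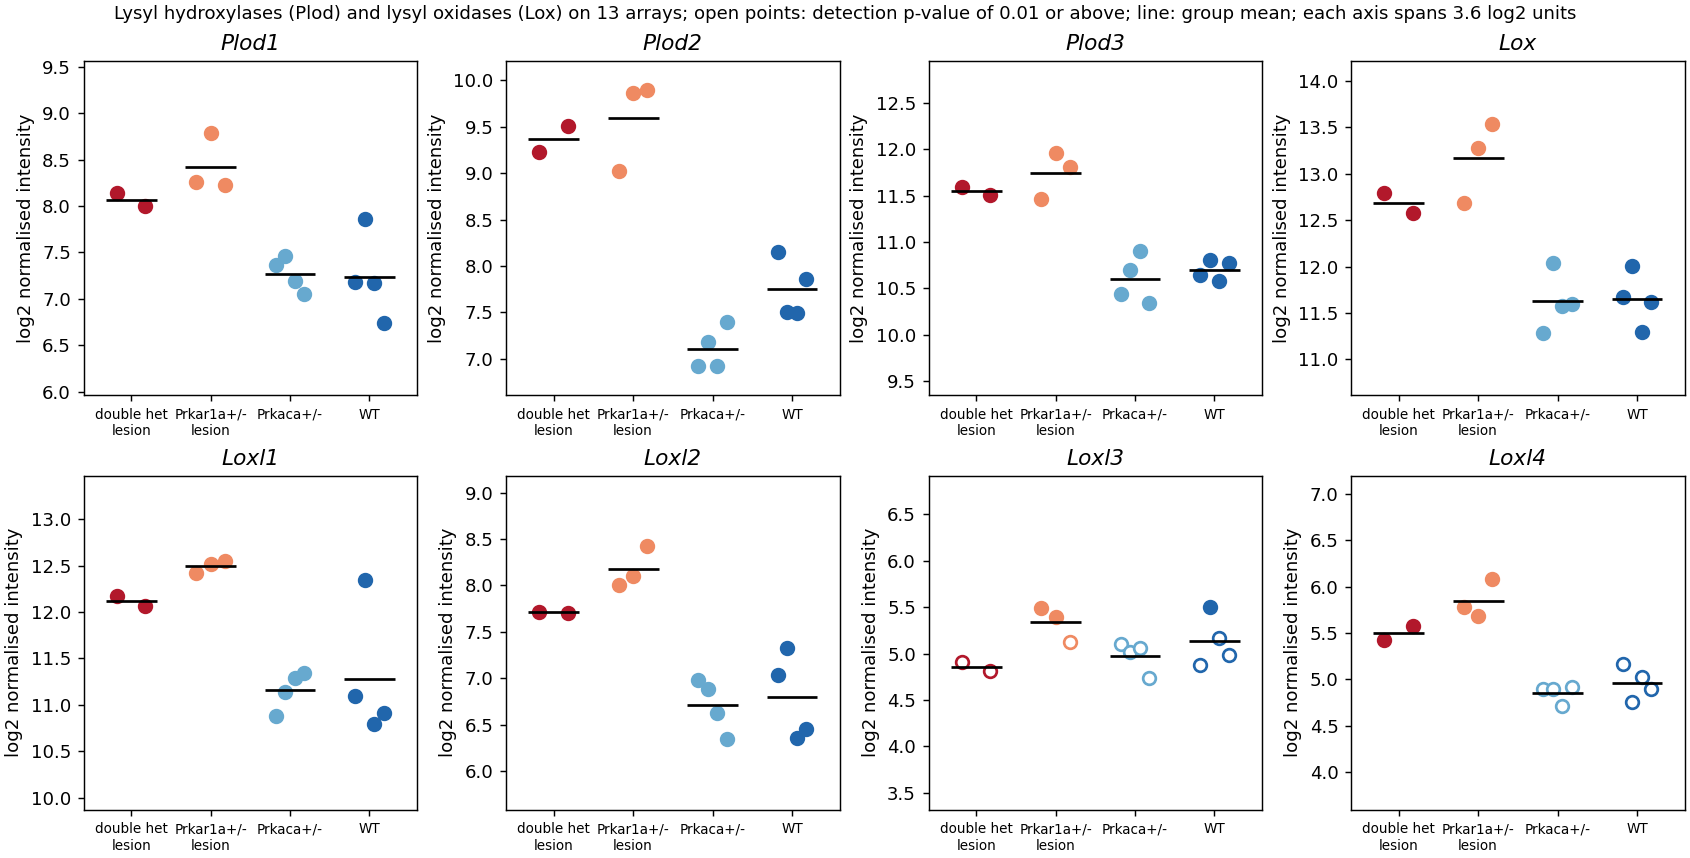
Log2 normalised intensity of the 8 enzymes on each of 13 arrays, by group, with the group mean as a line and open points where the probe was not detected. Lesion points lie above all non-lesion points for Plod1, Plod2, Plod3, Lox, Loxl2 and Loxl4, while WT sample 2 reaches the lesions for Loxl1 and Loxl3 overlaps throughout.

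Among the lysyl hydroxylases, Plod2, which hydroxylates the telopeptide lysines, had 9.23 and 9.51 log2 units in double heterozygote lesions and 9.03, 9.87 and 9.90 in Prkar1a+/- lesions, against 6.92, 7.18, 6.92 and 7.40 in Prkaca+/- bone and 8.15, 7.51, 7.49 and 7.86 in WT bone. All lesions lay above all other samples, and the lowest values were those of Prkaca+/- bone. The log2 difference of 2.05 ± 0.18 (SE, limma adjusted p = 2.76e-06) is a 4.15-fold higher signal, and it exceeded that of 98.3% of tested genes.

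Plod3, a hydroxylase whose product also transfers glucose to hydroxylysine, had 11.60 and 11.50 in double heterozygote lesions and 11.47, 11.96 and 11.81 in Prkar1a+/- lesions, against 10.44, 10.70, 10.90 and 10.34 in Prkaca+/- bone and 10.65, 10.80, 10.58 and 10.77 in WT bone. The 2 sets of samples did not overlap, and the spread within each was small. Its log2 difference was 1.00 ± 0.12 (SE, limma adjusted p = 4.22e-05), a 2.00-fold higher signal.

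Plod1, the hydroxylase of helical lysines, had 8.14 and 7.999 in double heterozygote lesions and 8.26, 8.79 and 8.22 in Prkar1a+/- lesions, against 7.36, 7.46, 7.19 and 7.05 in Prkaca+/- bone and 7.18, 7.87, 7.18 and 6.74 in WT bone. The lowest lesion stood just above WT sample 2, the highest of the samples without lesion. The log2 difference was 0.99 ± 0.17 (SE, limma adjusted p = 0.000499).

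Among the lysyl oxidases, Lox, the founding member of the family, had 12.79 and 12.58 in double heterozygote lesions and 12.69, 13.27 and 13.54 in Prkar1a+/- lesions, against 11.29, 12.04, 11.58 and 11.60 in Prkaca+/- bone and 11.68, 12.003, 11.29 and 11.62 in WT bone. The lesions were again all above the other samples, and 2 of the Prkar1a+/- lesions were the highest of all. The log2 difference was 1.29 ± 0.17 (SE, limma adjusted p = 8.53e-05), a 2.45-fold higher signal.

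Loxl1, which is needed to maintain elastic fibres, had 12.18 and 12.06 in double heterozygote lesions and 12.42, 12.52 and 12.55 in Prkar1a+/- lesions, against 10.88, 11.14, 11.29 and 11.34 in Prkaca+/- bone and 11.09, 12.34, 10.79 and 10.91 in WT bone. WT sample 2 lay above both double heterozygote lesions, and the other 7 samples without lesion lay below every lesion. The log2 difference was 1.08 ± 0.22 (SE, limma adjusted p = 0.00137), with an exact two-sided permutation p of 0.00466.
WT sample 2 also had the highest fibroblast and stroma marker level of the samples without lesion, 11.90, against 10.43 to 11.17 in the other 7. The 5 lesions had 11.92 to 12.37 for the same 7 markers. Whether these cells set the Loxl1 signal of that sample was not tested.

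Loxl2, which also oxidises collagen IV of basement membranes, had 7.72 and 7.71 in double heterozygote lesions and 8.01, 8.10 and 8.42 in Prkar1a+/- lesions, against 6.98, 6.88, 6.62 and 6.34 in Prkaca+/- bone and 7.04, 7.33, 6.36 and 6.45 in WT bone. No sample without lesion reached the lesions. The log2 difference was 1.19 ± 0.18 (SE, limma adjusted p = 0.000159), and it was 0.79 without background correction.

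Loxl4, a less studied relative of Loxl2, was detected in 5 of 5 lesions and in 0 of 8 samples without lesion. It had 5.42 and 5.58 in double heterozygote lesions and 5.78, 5.69 and 6.08 in Prkar1a+/- lesions, against 4.89, 4.90, 4.71 and 4.91 in Prkaca+/- bone and 5.17, 4.76, 5.02 and 4.90 in WT bone. Since the probe was not above background in bone without lesion, with 7 of the deposited intensities empty and filled from their detection p-values, the change is given as a bound. Loxl4 was at least 1.30-fold higher in lesions (limma adjusted p = 0.000101). The bound sets the mean of the lesions against the dimmest detected signal of each array without lesion, or the probe's own signal where that was higher. The Loxl4 probe passed the filter on dim probes only through the lesions. Its p-values and its place in the counts of higher members are therefore not independent support in any comparison with lesions. On the deposited scores Loxl4 was not called (limma adjusted p = 0.899).

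Loxl3, the remaining paralogue, was near background throughout, with 5 empty intensities filled. It was detected in 0 of 2 double heterozygote lesions and 2 of 3 Prkar1a+/- lesions, against 0 of 4 samples of Prkaca+/- bone and 1 of 4 samples of WT bone. The lesions had values between 4.81 and 5.49, against 4.74 to 5.50 in bone without lesion, and the 2 ranges overlapped almost completely. The log2 difference was 0.04 ± 0.12 (SE, limma adjusted p = 0.796), with a 95% confidence interval of -0.23 to 0.31.

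The exact two-sided permutation test over the 13 arrays gave p = 0.00155 for Lox, Loxl2, Plod1, Plod2 and Plod3, the smallest p these arrays allow. Loxl4 had the same p, but its probe passed the filter only through the lesions. With the muscle marker level as a covariate, all 7 calls of higher enzymes were kept, while the share of all probes called fell to 21.7%. That level was at most 13.44 in lesions and at least 13.48 in non-lesion bone, so muscle content and lesion cannot be told apart in this fit.

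Because the 3 lysyl hydroxylases were measured on the same arrays, differences between them within an array show whether they changed unequally. Plod2 minus Plod3 was higher in lesions by 1.06 log2 units (exact two-sided permutation p = 0.00155, adjusted p over 13 such differences = 0.00673), and lesions and non-lesion bone did not overlap. Plod2 minus Plod1 was higher by 1.05 (exact permutation p = 0.0109, adjusted p = 0.0202), and without double heterozygote lesion 2 the value was 0.98 with an adjusted p of 0.0525. Plod1 minus Plod3 differed by 0.01 (exact permutation p = 0.971), a value whose sign changed with the background correction.

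Plod2 also rose more than Lox, by 0.74 (exact permutation p = 0.00777, adjusted p = 0.0168), but without background correction the value was 0.35 with an adjusted p of 0.115. Among the oxidases, Lox minus Loxl1 differed by 0.22 (exact permutation p = 0.284) and Lox minus Loxl2 by 0.10 (exact permutation p = 0.580). Without background correction Lox minus Loxl2 was 0.49 with an adjusted p of 0.0115, so whether these 2 oxidases changed unequally depended on that step.

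Set against the collagens they modify, the enzymes took different positions. Col1a1 and Col1a2 encode the chains of type I collagen, the main protein of bone matrix, and their log2 differences were 2.84 ± 0.16 (SE, limma adjusted p = 1.37e-07) and 1.08 ± 0.11 (SE, limma adjusted p = 9.49e-06). Lox minus Col1a1 was lower in lesions, at -1.54 (exact permutation p = 0.00155, adjusted p = 0.00673), and Lox minus Col1a2 differed by 0.26 (exact permutation p = 0.244). Plod2 minus Col1a1 was lower, at -0.80 (exact permutation p = 0.00311, adjusted p = 0.0101), whereas Plod2 minus Col1a2 was higher by 1.00 (exact permutation p = 0.00155, adjusted p = 0.00673). The comparison with type I collagen therefore depended on which chain's probe was used. Col1a2 averaged 14.36 log2 units in non-lesion bone and 15.44 in lesions, against 12.14 and 15.02 for Col1a1. Whether the brightness of the Col1a2 probe limited its difference was not tested. Plod1 minus P3h4 was lower, at -0.74 (exact permutation p = 0.00777, adjusted p = 0.0168), where P3h4 encodes the partner of Plod1 in the endoplasmic reticulum.

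**Figure D2:**
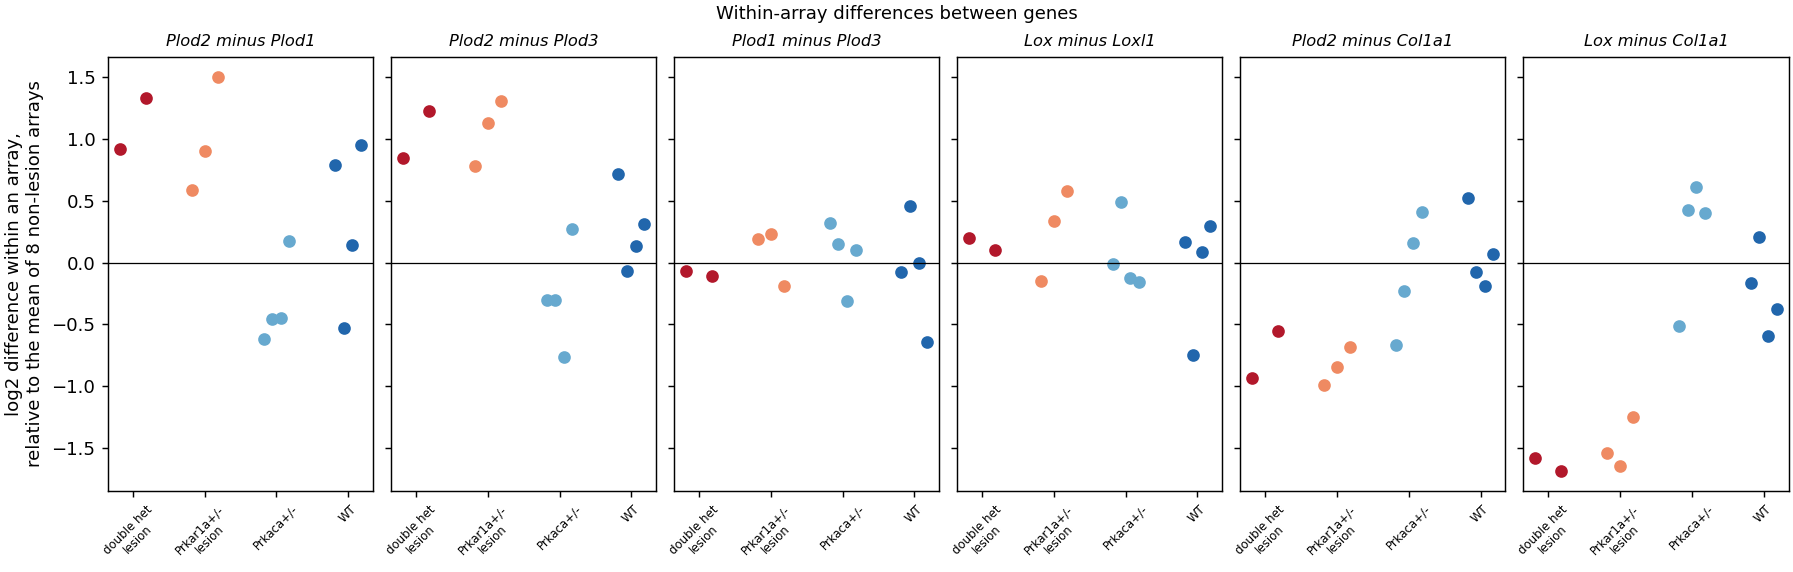
Log2 difference between 2 genes on the same array, relative to the mean of the 8 non-lesion arrays, by group, with 1 point per array. Plod2 minus Plod3 is higher on all 5 lesion arrays than on any other, Lox minus Col1a1 is lower on all 5, and Plod1 minus Plod3 overlaps.

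The same 8 enzymes were then compared within each Prkaca genotype. In Prkar1a+/- lesions against WT bone, 7 of 8 were higher and 0 lower, where 20.0% of all probes were called higher. The log2 differences were 1.84 for Plod2 (limma adjusted p = 0.000126), 1.52 for Lox (0.000432), 1.38 for Loxl2 (0.000850), 1.21 for Loxl1 (0.00610), 1.19 for Plod1 (0.00184) and 1.05 for Plod3 (0.000495). Loxl4 was at least 1.41-fold higher (limma adjusted p = 0.000562), and Loxl3 differed by 0.20 (0.347). The exact permutation test cannot go below 0.0571 with 3 against 4 arrays. With the muscle marker level as a covariate, Loxl1 (limma adjusted p = 0.145) and Plod1 (0.11) were no longer called.

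In double heterozygote lesions against Prkaca+/- bone, 7 of 8 were again higher and 0 lower, where 14.3% of probes were called higher. Plod2 had the largest log2 difference of the 8, 2.26 (limma adjusted p = 0.000153), followed by 1.06 for Lox (0.0113), 1.01 for Loxl2 (0.0154), 0.96 for Loxl1 (0.0477), 0.95 for Plod3 (0.00347) and 0.80 for Plod1 (0.0379). Loxl4 was at least 1.13-fold higher (limma adjusted p = 0.0114), and Loxl3 differed by -0.12 (0.671). With 2 against 4 arrays the exact permutation test cannot go below 0.133. Without double heterozygote lesion 1 only Plod2 and Plod3 were called, and without lesion 2 only Plod2, Plod3 and Lox, while all 7 differences kept their sign. With the muscle covariate Loxl1 (limma adjusted p = 0.116) and Plod1 (0.121) were not called, and over all recomputed fits Loxl1 lost its call in 16 and Plod1 in 10.

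**Figure D3:**
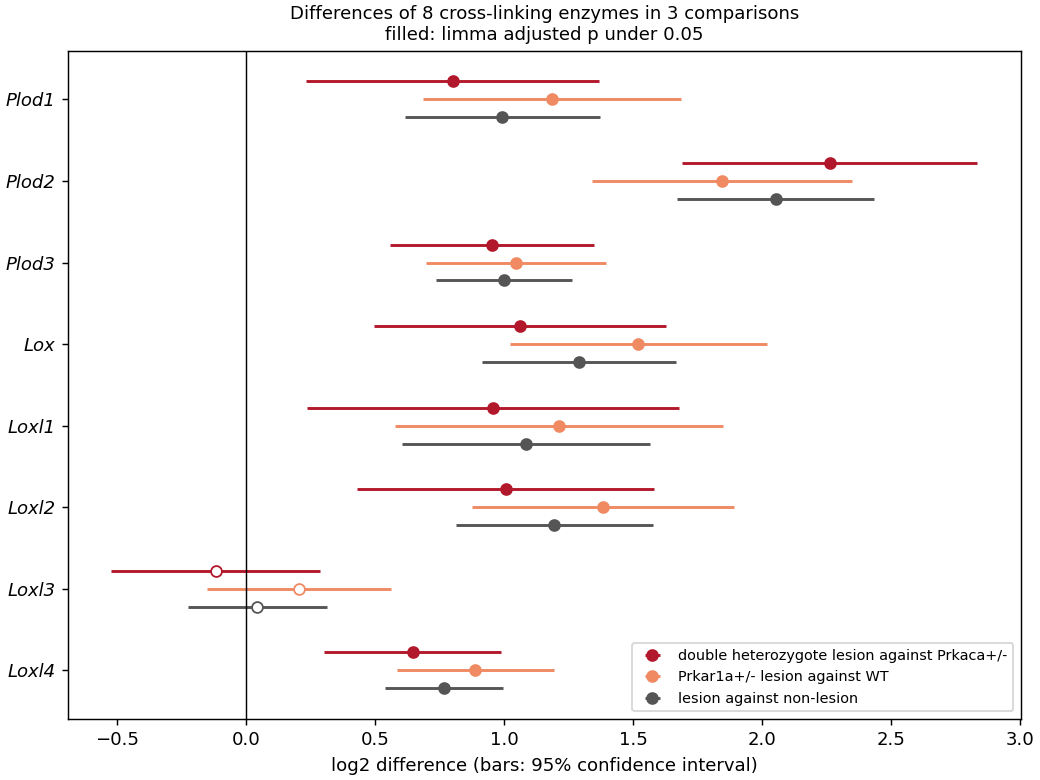
Log2 difference of each enzyme with its 95% confidence interval in double heterozygote lesions against Prkaca+/- bone, Prkar1a+/- lesions against WT bone, and all lesions against all non-lesion bone. Plod2 lies at 2.26, 1.84 and 2.05, the intervals of Loxl3 include 0 in all 3 comparisons, and the points of Loxl4 are fitted values against bone in which it was not detected.

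The size of the lesion difference was compared between the Prkaca genotypes as an interaction. No member and 0 of 16226 probes passed limma's adjusted p, with 385 probes at an unadjusted p under 0.05. Plod2 had an interaction of 0.42 ± 0.35 log2 units (SE), and the other 7 had values between -0.46 for Lox and -0.09 for Plod3. Each is under 2 standard errors.

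Between double heterozygote and Prkar1a+/- lesions, again no member and 0 of 16226 probes were called by limma, with 551 probes at an unadjusted p under 0.05. All 8 members had lower means in double heterozygote lesions, with log2 differences between -0.48 for Lox and -0.19 for Plod3. Loxl1, Loxl2, Loxl3, Loxl4 and Plod1 did not overlap between the 2 lesion groups, against 8.03% of probes that were lower without overlap. Of these, Loxl3 was near background, detected in 0 of 2 double heterozygote lesions and 2 of 3 Prkar1a+/- lesions. Both of its double heterozygote intensities were empty and filled. Its probe would not have passed the filter without the Prkar1a+/- lesions, the group where it was higher. The place of Loxl3 among the members that were lower or did not overlap is therefore not independent support. The exact permutation test cannot go below 0.2 with 2 against 3 arrays.

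In Prkaca+/- bone against WT bone, limma called 0 of 16226 probes, with 263 at an unadjusted p under 0.05. Plod2 was the member with the largest difference, -0.65 ± 0.22 log2 units (SE, limma unadjusted p = 0.0104, adjusted p = 1.0), with every Prkaca+/- sample below every WT sample. Of all probes, 0.549% were lower without overlap in this comparison, and the exact two-sided permutation p of 0.0286 is the smallest possible with 4 against 4. The other 7 members differed by between -0.15 for Loxl3 and 0.03 for Plod1. The confidence interval of the Lox difference was -0.48 to 0.44, and that of the Loxl1 difference was -0.71 to 0.47. Such intervals do not give the size of change the adjusted test could miss, since the Plod2 difference of -0.65 was not called.

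The lists of the wider collagen pathway put these enzymes in context, again in lesions against non-lesion bone. Of the 10992 tested genes, 26.2% were called higher and 25.8% lower. Prolyl hydroxylation, which stabilises the triple helix, had 7 of 8 measured genes higher and 0 lower, with a median log2 difference of 1.39. The collagen prolyl 3-hydroxylase P3h1 (1.96 ± 0.14 SE, limma adjusted p = 7.71e-07) and its partner Crtap (1.84 ± 0.17, 4.22e-06) led this list. P4ha3, a prolyl 4-hydroxylase subunit, was at least 1.73-fold higher (limma adjusted p = 1.31e-06), a bound because it was detected in 5 of 5 lesions and 0 of 8 other samples. It passed the filter only through the lesions, so its p-value and its place among the 7 are not independent support. On the deposited scores P4ha3 was not called (limma adjusted p = 0.0608).

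The direct partners and glycosyltransferases of lysyl hydroxylation had 3 of 5 measured genes higher and 1 lower, with a median of 0.64. Serpinh1, the collagen chaperone HSP47, had 10.36 ± 0.43 log2 units in Prkar1a+/- lesions (SD, n = 3), against 8.07 ± 0.30 in WT bone (n = 4). Its lesion difference was 1.95 ± 0.19 (SE, limma adjusted p = 8.95e-06), that of P3h4 was 1.67 ± 0.14 (2.03e-06) and that of Colgalt1, which adds galactose to hydroxylysine, was 0.64 ± 0.12 (0.000749). Tmem38b, an ion channel of the endoplasmic reticulum, was lower, at -0.88 ± 0.21 (SE, limma adjusted p = 0.00398), and at -0.38 with the muscle covariate, where it was not called (0.247). Fkbp10, the immunophilin that assists the Plod2 product, had no tested probe.

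Procollagen processing and lysyl oxidase activation had 5 of 7 measured genes higher and 2 lower, with a median of 1.32. Bmp1, the protease that cleaves both the procollagen C-propeptide and the Lox propeptide, had 12.85 and 12.40 in double heterozygote lesions and 12.60, 13.03 and 12.72 in Prkar1a+/- lesions, against 10.74, 10.76, 10.79 and 10.91 in Prkaca+/- bone and 11.24, 11.40, 10.60 and 10.71 in WT bone. The groups were far apart, by a log2 difference of 1.81 ± 0.15 (SE, limma adjusted p = 2.41e-06), and 3 other Bmp1 probes gave 1.87, 1.83 and 1.45. The proteoglycan Lum, which binds collagen fibrils and is also a stromal marker, rose by 2.92 ± 0.39 (SE, limma adjusted p = 7.68e-05), and Pcolce, an enhancer of Bmp1, rose by 1.65 ± 0.14 (2.92e-06). The related enhancer Pcolce2 was lower, at -0.58 ± 0.21 (SE, limma adjusted p = 0.0373), with a second probe at -0.44 that did not pass (0.185). The Pcolce2 call was lost in 11 of the recomputed fits, among them those with the muscle covariate (limma adjusted p = 0.378) and without double heterozygote lesion 1 (-0.30, 0.271). Tll1, a relative of Bmp1, was detected in 0 of 5 lesions and 3 of 8 other samples. It was called lower (limma adjusted p = 0.0160), with no fold given. Its probe passed the filter only through the non-lesion samples, so its p-value and its place among the 2 lower genes are not independent support. Tll1 was not called with the muscle covariate (limma adjusted p = 0.197). Without double heterozygote lesion 1 its fitted difference was -0.52, against -0.60 on all arrays.

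Of the fibrillar collagens, 9 of 11 measured genes were higher and 0 lower, with a median of 1.38, led by Col1a1, Col5a2 (2.60 ± 0.23 SE, limma adjusted p = 2.99e-06) and Col5a1 (2.42 ± 0.14, 1.43e-07), the last 2 of type V collagen. Of the elastic fibre genes, 3 of 10 were higher and 1 lower, with a median of 0.36. Mfap2, a microfibril glycoprotein, rose by 2.34 ± 0.20 (SE, limma adjusted p = 3.04e-06), Emilin1 by 1.82 ± 0.16 (3.55e-06) and Eln, elastin itself, by 0.67 ± 0.18 (0.00725), while Ltbp4, which helps to assemble elastic fibres, was lower, at -0.58 ± 0.16 (0.00818). Ltbp4 was at -0.29 with the muscle covariate (limma adjusted p = 0.303) and at -0.45 without double heterozygote lesion 1 (0.0621), and was called in neither.

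Lysyl oxidases need copper, and 5 of 8 measured genes of copper supply were higher and 1 lower, with a median of 0.64. Steap1 (2.05 ± 0.17 SE, limma adjusted p = 1.98e-06), the metalloreductase Steap2 (1.13 ± 0.19, 0.000367) and the copper importer Slc31a1 (1.54 ± 0.12, 1.25e-06) rose. Steap1 was detected in 5 of 5 lesions and 4 of 8 other samples, and its difference was 1.09 without background correction. Cox17, which delivers copper to the mitochondrial cytochrome oxidase, was lower, at -0.73 ± 0.13 (SE, limma adjusted p = 0.000532). Of other cross-linking and collagen turnover genes, 6 of 10 were higher and 1 lower, with a median of 1.45. Tgm1, 1 of the 6, was detected in 4 of 5 lesions and 0 of 8 other samples, so it passed the filter only through the lesions. The collagenase Mmp13 rose by 3.15 ± 0.21 (SE, limma adjusted p = 4.00e-07), with its 2 other probes at 4.84 and 3.27, and the osteoclast proteases Mmp9 and Ctsk rose by 3.35 ± 0.30 (3.86e-06) and 2.77 ± 0.19 (5.37e-07). F13a1, the transglutaminase factor XIII, was lower, at -0.97 ± 0.26 (SE, limma adjusted p = 0.00669). It was not called with the muscle covariate, at -0.58 (limma adjusted p = 0.225), or without double heterozygote lesion 1, at -0.77 (0.0519).

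**Figure D4:**
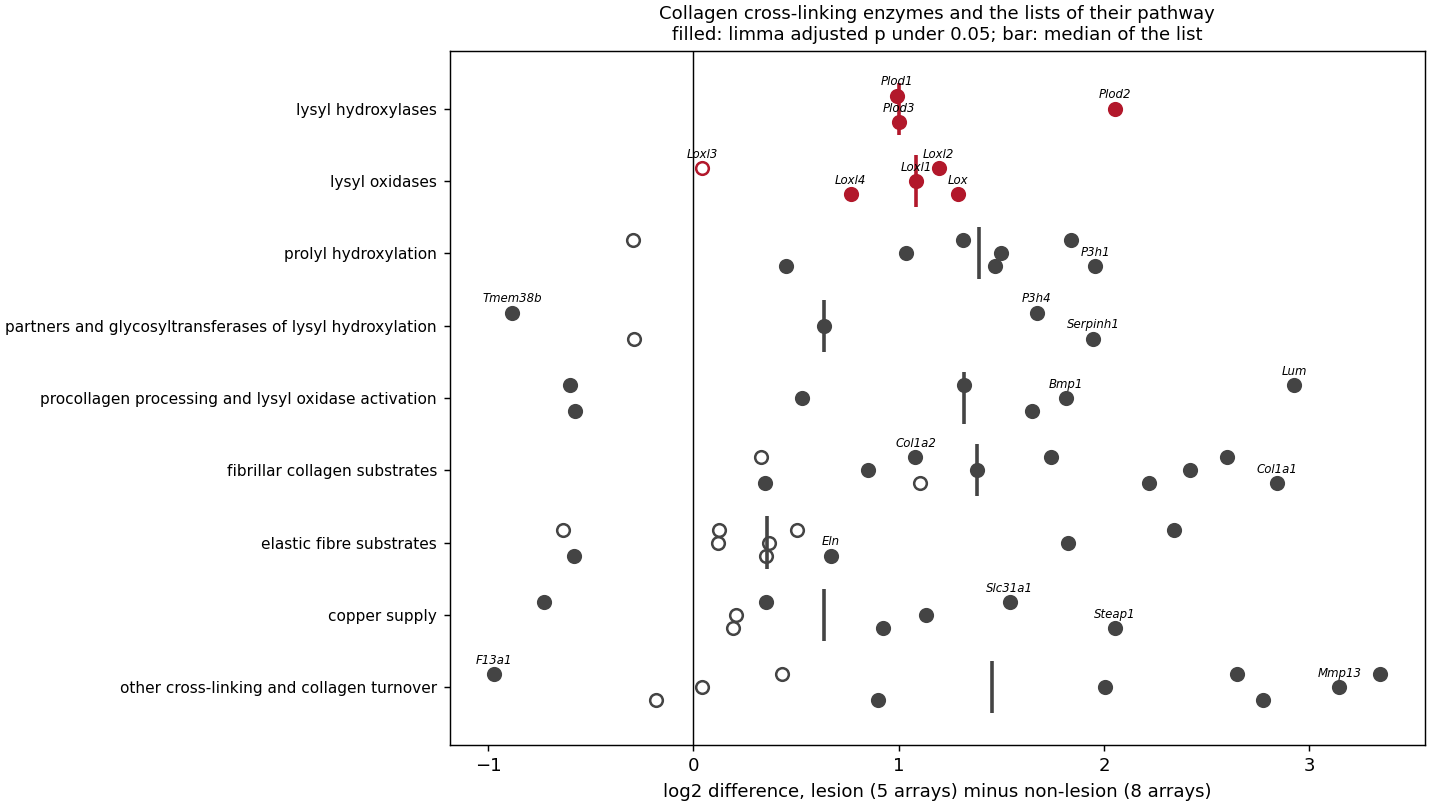
Log2 difference in lesions against non-lesion bone for the lysyl hydroxylases and lysyl oxidases, in red, and for 7 lists of their pathway, in grey, with 1 point per gene, filled where limma's adjusted p was under 0.05, and a bar at the median. Plod1, Plod3, Lox, Loxl1, Loxl2 and Plod2 lie between 0.99 and 2.05, and the lists of elastic fibre substrates and of copper supply have lower medians than the fibrillar collagens. The points of Loxl4, P4ha3 and Tgm1 are fitted values against non-lesion bone in which the probe was not detected. That of Tll1 is a fitted value for lesions in which it was not detected.

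Marker levels of several cell types moved in the same samples, where 26.2% of all tested genes were called higher and 25.8% lower. The osteoclast markers averaged 9.67 to 10.4 log2 units in lesions, against 7.08 to 8.11 in non-lesion bone, with 6 of 6 measured markers higher. Only 3 to 4 of the 6 were detected in each non-lesion sample, against 4 to 6 in each lesion. The non-lesion mean therefore includes values near background. Which of these markers passed the filter only through the lesions was not analysed here, so the count is not independent support. The fibroblast and stroma markers had 5 of 7 higher and 0 lower. Adipocyte markers were 5.97 to 8.49 in lesions, against 8.80 to 10.1 in non-lesion bone, with 4 of 4 lower, and red cell markers had 3 of 3 lower. Per lesion, 3 to 4 of these adipocyte markers and 1 to 3 of these red cell markers were detected. Summed intensities of the 8 osteoblast markers, among them Col1a1 and Col1a2, were 128729 to 180903 in lesions, against 26351 to 44289 in non-lesion bone. The part of these cells in the differences of the lysyl oxidases and lysyl hydroxylases was not tested.

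For Lox, Loxl1, Loxl2 and Plod2, the members whose log2 difference was at least 1 before rounding, the most similar profiles over the 13 arrays were sought among the 10991 other tested genes. Likeness was the root mean square difference between centred log2 profiles, a description that all genes on these arrays share through the lesion contrast. Nearest to Lox were Ikbip at 0.158, S100a11 at 0.181 and Upp1 at 0.183. Nearest to Loxl2 were Fkbp14 at 0.152, a prolyl isomerase of the endoplasmic reticulum, Gpx8 at 0.196 and Armcx2 at 0.200. Nearest to Loxl1 were Anpep, Efs and Plk4, at 0.177, 0.192 and 0.194.
The nearest profiles to Plod2 were Adgrl3 at 0.263, Sdc1 at 0.279 and Steap1 at 0.283. By this measure none was as close as the named neighbours of the 3 oxidases, but Plod2 also lay farther from all genes, with a median distance of 1.11 against 0.765 for Lox.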

How the data were processed

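Total RNA of 13 samples was amplified to biotinylated cRNA and hybridised to Illumina bead arrays, per the labels' protocols. Per the file headers, the deposited table holds a linear signal intensity and a detection p-value for each probe. The authors' second deposited table holds scores, which followed the intensities of the same array linearly. They were taken as within-array z-scores, though a linear relation alone does not establish that scale. The scanner, its software and the genome build were not given in the sources used here, as text or header. The 123442 intensities with a detection p-value above 0.1 were empty in the deposited table.

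Background mean and SD were taken per array by regressing intensity on normal quantiles of the detection p-value (0.01 to 0.1), and empty intensities were filled from that line. Values were then corrected by normexp, offset by 16, quantile normalised and put on the log2 scale. Probes with a detection p-value under 0.01 on at least 2 arrays were tested (16226 of 25697) with limma 3.58.1 in R 4.3.3, 1 mean per group (9 residual degrees of freedom), and p-values were adjusted by Benjamini-Hochberg over all tested probes. All adjusted p-values without another name are limma's. A gene is its tested probe with the highest mean. The number of arrays limits the precision. The fit was tested on simulated data.

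The members, gene lists and naming rule (the 3 largest rises and falls of each list, plus Bmp1, Fkbp10, Serpinh1 and P3h4) were chosen with earlier results of these data known. The alternatives tried were no background correction, an offset of 50, scaling to the 75th percentile, 2 other filters, the deposited scores, a replicate block, covariates for Xist and for muscle markers, array weights, and leaving out each array.

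Whether replicate numbers paired the samples could not be decided. Residuals of the 16 same-numbered pairs correlated between -0.244 and 0.358, and 6 pairs were over 0.1. Their median was -0.012, against 0.006 for differently numbered pairs. Residuals of the double heterozygote arrays mirror each other exactly, so the pairs that include them are not independent.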

Additional observations from a re-analysis of the deposited data

Results flagged for a closer look

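Among 74 groups of 4 arrays for 37 named genes, 2 had 1 array far from the other 3 by Dixon's criterion, which chance meets in about 1 of 20 groups. Loxl4 was 4.71 log2 units in Prkaca+/- sample 3, while the others lay between 4.89 and 4.91, all of them below the detection threshold. Steap1 was 5.47 in Prkaca+/- sample 2, the only Prkaca+/- sample in which it was detected, and 4.88 to 4.94 in the others.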

How the results depend on the processing

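Of 182 recomputed member values per comparison, 179 in lesions against non-lesion bone, 178 in Prkar1a+/- lesions against WT and 150 in double heterozygote lesions against Prkaca+/- bone kept their direction and side of the threshold, and the cause of the others was not tested. In double heterozygote lesions, 4 members were called higher on the deposited scores and 2 to 7 when 1 array was left out. With the replicate block, the lesion calls were kept, but in double heterozygote lesions Loxl1 (limma adjusted p = 0.114) and Plod1 (0.0661) were not called. Each member has 1 probe, so the alternative of another probe gave no value.

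On the deposited scores, in their own units and not log2, the lesion differences were -0.0127 for Loxl3 and -0.000853 for Loxl4. Those in Prkar1a+/- lesions were -0.0129 and -0.00128, and that of Loxl4 in double heterozygote lesions was -0.000429. The Prkaca+/- differences were 0.00741 for Lox and -0.00700 for Plod1. The interactions were 0.000431 for Loxl3, 0.000848 for Loxl4 and -0.0285 for Plod2. The replicate block gave -0.0396 for Loxl3 in lesions. In Prkaca+/- against WT bone, scaling to the 75th percentile gave 0.00849 for Lox, and array weights gave 0.0355 for Lox and 0.0807 for Loxl2. Leaving out 1 array gave -0.16 to 0.10 for Lox, -0.28 to 0.23 for Loxl1, -0.23 to 0.0919 for Loxl2 and -0.14 to 0.24 for Plod1. The Plod3 interaction was 0.0274 with the muscle covariate and -0.23 to 0.0116 without 1 array. Within arrays, Plod1 minus Plod3 was -0.24 without background correction, -0.12 with an offset of 50 and -0.0806 to 0.0765 without 1 array. Loxl1 minus Loxl2 was 0.27 and 0.0891 under the first 2 of these, and Lox minus Loxl2 was -0.17 with 75th percentile scaling.

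Of the lists, partners of lysyl hydroxylation had 2 genes lower on the scores and 0 with the muscle covariate. Procollagen processing had 3 higher with the muscle covariate. Its lower genes numbered 1 with either other filter or the scores, 0 with the replicate block or the muscle covariate, and 0 to 2 without 1 array. Elastic fibre genes had 5 higher with array weights and 3 to 5 without 1 array, and 0 lower with the muscle covariate and 0 to 2 without 1 array. Other cross-linking genes had 0 lower with the muscle covariate and 0 to 1 without 1 array.

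Probes called in lesions numbered 8314, and 3515 with the muscle covariate. In Prkar1a+/- lesions they numbered 6382, 1134 with the muscle covariate and 3977 without lesion 2. In double heterozygote lesions they numbered 4574, 2854 with the muscle covariate, and 1557 or 2163 without lesion 1 or 2. The deposited scores moved the share of lesion calls that were higher to 39.8%, against 48.9%. Loxl3 and Loxl4 lie near background, and without background correction the fitted lesion difference of Loxl4, which is no measured fold, was 0.29, against 0.77.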
